A study of Mus musculus with 2 samples.

Results

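The 10 giant cytoskeletal linker and myosin genes described here were measured by bulk RNA-seq of mouse pituitary cells. They are 2 nonmuscle myosin II heavy chains (Myh9, Myh10), 3 plakins (Plec, Macf1, Dst), 1 filamin (Flna), 2 spectrins (Sptan1, Sptbn1) and 2 ankyrins (Ank2, Ank3). They were chosen by name with their ratios between the libraries already known, so the values that compare the libraries are a description and carry no test. All 10 were in the count table of 47069 genes, and all 10 were among the 16504 genes that averaged 1 or more counts per 1000000 (CPM) over both libraries. The study preserved primary pituitary cells in RNA-Best, a buffer meant to keep both RNA and whole single cells, and in RNAlater, an established reagent that keeps RNA but not single cells. The RNA-Best library and the RNAlater library were each made from one pooled sample of 500000 to 700000 cells from 5 pituitaries of randomly cycling C57BL/6 female mice aged 10 to 12 weeks. The glands were dissociated with collagenase and pancreatine, and the cells went straight into one or the other reagent. Each library was the only one of its group, so the reagent, the animals pooled and the library preparation cannot be told apart, and there is no replicate check on any difference below.

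Poly(A) RNA was sequenced as single reads of 51 bases. The library totals were 53915047 counts for RNA-Best and 44917492 counts for RNAlater. The prolactin and growth hormone genes, Prl and Gh, took up 29.7% of all counts in RNA-Best and 23.2% in RNAlater. All 7 hormone subunit genes listed as endocrine markers were detected, and they summed to 307051 CPM in RNA-Best against 239085 CPM in RNAlater. Scaling by the library total put the median log2 ratio of RNA-Best to RNAlater at -0.18 over the 16504 genes. That shift is given here once, and ratios relative to it are named as such.

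These genes encode some of the largest proteins that hold a cell in shape. A myosin II heavy chain carries a motor head that pulls on actin filaments and a long coiled-coil tail, and it works together with small light chains. Plakins tie actin filaments, microtubules and intermediate filaments to each other and to junctions, and filamin A cross-links actin into networks. Spectrin forms a mesh under the plasma membrane, and ankyrins fasten that mesh to channels, pumps and adhesion molecules. In secretory cells of the pituitary, the actin cortex built by such proteins lies between the hormone granules and the membrane they fuse with.

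The families are shown by short coding stretches, because close paralogs can share reads and the split of reads between them would then be uncertain. Each stretch has 60 bases, is written 5′ to 3′ on the coding strand, lies within a single exon of the longest coding transcript of GENCODE M21 on GRCm38 (mm10), and has in capitals the bases that are the same in every family member shown. The first set, from the motor part of the heavy chain, is the best shared stretch of Myh9 (exon on the minus strand, chr15:77786601-77786660), Myh10 (plus strand, chr11:68768199-68768258) and Myh14, a paralog outside the 10 genes (minus strand, chr7:44639057-44639116).
Myh9: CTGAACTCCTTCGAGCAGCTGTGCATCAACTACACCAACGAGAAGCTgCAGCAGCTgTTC
Myh10: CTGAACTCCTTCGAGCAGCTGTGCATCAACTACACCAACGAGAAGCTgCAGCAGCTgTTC
Myh14: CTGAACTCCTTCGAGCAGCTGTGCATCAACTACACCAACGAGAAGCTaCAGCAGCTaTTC
The second set, from the actin-binding part, compares Plec (minus strand, chr15:76193428-76193487), Macf1 (minus strand, chr4:123539814-123539873) and Dst (plus strand, chr1:34116118-34116177).
Plec: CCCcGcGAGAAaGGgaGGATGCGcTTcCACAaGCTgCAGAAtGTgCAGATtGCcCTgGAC
Macf1: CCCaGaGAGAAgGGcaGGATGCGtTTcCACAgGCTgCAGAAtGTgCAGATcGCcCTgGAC
Dst: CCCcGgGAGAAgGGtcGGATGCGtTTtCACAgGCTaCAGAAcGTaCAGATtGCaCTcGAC
The last set, from the ankyrin repeats that bind membrane proteins, compares Ank2 (minus strand, chr3:126998916-126998975) and Ank3 (plus strand, chr10:69898228-69898287).
Ank2: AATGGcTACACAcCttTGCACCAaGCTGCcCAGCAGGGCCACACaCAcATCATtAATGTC
Ank3: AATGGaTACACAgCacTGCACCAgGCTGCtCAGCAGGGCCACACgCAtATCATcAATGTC

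In the myosin set 58 of 60 bases were the same in all 3 genes, and Myh9 and Myh10 had identical letters. In the plakin set 46 of 60 bases were the same, with no identical run over 7 bases, and in the ankyrin set 51 of 60 were the same. Over the coding parts of the longest transcripts, the longest run common to Myh9 and Myh10 was 122 bases, which is longer than a read. The longest run was 24 bases for Plec and Macf1, 23 for Plec and Dst, 20 for Macf1 and Dst, and 23 for Ank2 and Ank3. Over whole longest transcripts, a read of 51 bases could not be placed uniquely at 81 of 7383 positions of Myh9 (1.10%). For Myh10 this held at 72 of 7741 positions (0.930%). Of the positions of Myh9, 72 also occurred in Myh10 and 24 in Myh11, another myosin II heavy chain, some of them in both. Dst shared 1029 of 23229 positions (4.43%) with antisense, overlapping or copied sequence of other genes, and Sptbn1 shared 84 (0.928%). Ank2 shared 2 positions, and Plec, Macf1, Flna, Sptan1 and Ank3 shared none. Plec, Flna and Sptbn1 had whole counts in both libraries, whereas the other 7 genes had a fractional count in at least 1 library. Exons of Plec overlapped Parp10, to which 1976 (RNA-Best) and 2069 (RNAlater) counts were assigned, on the same strand over 205 bases. Dst overlapped the antisense genes A930005N03Rik and Gm26788 over 1493 bases, to which 42 counts were assigned in RNA-Best and 47 in RNAlater. Sptbn1 overlapped the antisense gene Gm29237 over 134 bases and Ank2 overlapped Gm16958 over 182 bases.

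All 10 genes were lower in RNA-Best than in RNAlater, and 9 of them were at least 2-fold lower, beside 4.99% of all genes tested (824 of 16504). Only 0.273% of all genes were at least 2-fold higher. Since these ratios were among the values behind the choice of the genes, nothing is read from the count of 9. Of the 2-fold differences among all genes, 5.18% were in the higher direction under total-count scaling, 20.1% under TMM scaling (438 lower, 110 higher), 21.8% under DESeq2 size factors (423 lower, 118 higher) and 13.4% when Prl and Gh were left out of the totals (536 lower, 83 higher). The median log2 ratio of the 10 genes was -1.57, or -1.39 relative to the median of all genes. Added together, they held 613 CPM in RNA-Best against 1920 CPM in RNAlater, a 3.13-fold lower sum. In bulk RNA, fewer cells of a type and less RNA per cell cannot be told apart, for these genes as for any other.

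**Figure D1:**
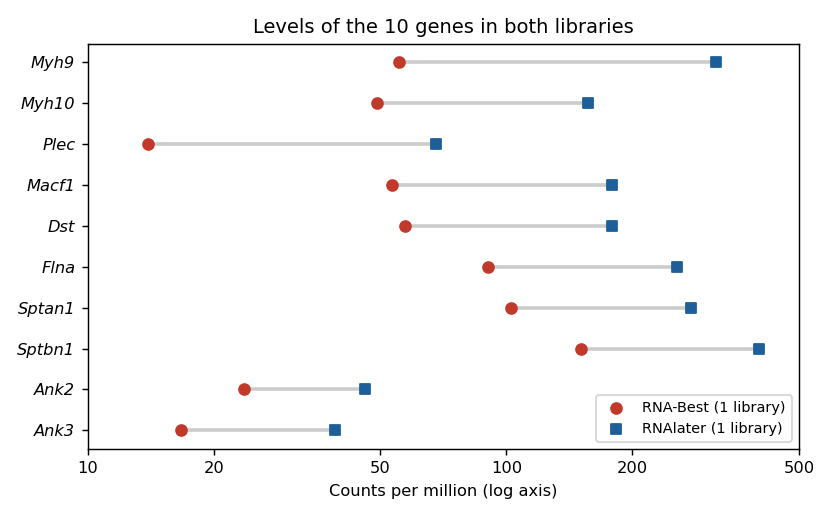
Level of each gene in CPM (log axis) in the RNA-Best library (circles) and the RNAlater library (squares), with a grey line joining the 2 values and 1 library per group, so no error bars. The RNAlater value is to the right for all 10 genes, with the widest gap for Myh9 (55.4 against 317 CPM) and the narrowest for Ank2 (23.6 against 46.0 CPM).

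Myh9, the heavy chain of nonmuscle myosin IIA, which drives contraction of the cell cortex, lies on chromosome 15 (77760587-77842175, minus strand; ENSMUSG00000022443.16). It had 2988 counts in RNA-Best, or 55.4 CPM, and 14246 counts in RNAlater, or 317 CPM. The log2 ratio was -2.51, with a 95% exact conditional binomial interval of -2.57 to -2.46, and the level was 5.72-fold lower. Among all 16504 genes only 2 had a lower ratio. Here and below, intervals were computed without the pseudocount and cover counting error only, since PCR reads without molecular identifiers are not independent molecules.

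Myh10, the heavy chain of nonmuscle myosin IIB, which is the slower motor and holds tension for longer, lies on chromosome 11 (68691559-68816632, plus strand; ENSMUSG00000020900.15). Its levels were 49.2 CPM in RNA-Best against 157 CPM in RNAlater, for a log2 ratio of -1.66 (interval -1.73 to -1.61) and a 3.18-fold lower level. Both heavy chains were thus lower in RNA-Best, but by unequal factors. Myh9 had 1.13 times the reads of Myh10 in RNA-Best and 2.03 times in RNAlater, a comparison that does not depend on how the libraries were scaled. Per kb of longest transcript, the level of Myh9 was 1.18 times that of Myh10 in RNA-Best and 2.12 times in RNAlater. The windows that the genes share, 72 in number, were under 1.10% of either transcript.

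Plec encodes plectin, which anchors intermediate filaments to junctions, to the nucleus and to actin. The gene lies on chromosome 15 (76170974-76232574, minus strand; ENSMUSG00000022565.15). It had 749 counts in RNA-Best (13.9 CPM) and 3050 counts in RNAlater (67.9 CPM), a log2 ratio of -2.25 (interval -2.41 to -2.17) and a 4.89-fold lower level. With Myh9 it was one of 2 genes of the set that were at least 4-fold lower. Its ratio, with 0.5 CPM added, was the 6th lowest of all 16504 genes.

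Macf1 and Dst encode the spectraplakins, which bind actin at one end and microtubules at the other. Macf1, on chromosome 4 (123349633-123684360, minus strand; ENSMUSG00000028649.17), had 53.4 CPM in RNA-Best against 179 CPM in RNAlater, for a log2 ratio of -1.73 (interval -1.81 to -1.68). Dst, on chromosome 1 (33908225-34308661, plus strand; ENSMUSG00000026131.17), had 57.2 CPM in RNA-Best against 179 CPM in RNAlater, for a log2 ratio of -1.63 (interval -1.70 to -1.58). The spectraplakins stood side by side in both libraries: Macf1 had 0.934 times the reads of Dst in RNA-Best, and in RNAlater they had 8043 and 8024 counts. Plec did not keep step with them, with 0.243 times the reads of Dst in RNA-Best and 0.380 times in RNAlater.

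Flna, the X-linked gene of filamin A (chromosome X, 74223461-74249820, minus strand; ENSMUSG00000031328.15), had 90.4 CPM in RNA-Best against 256 CPM in RNAlater. Its log2 ratio was -1.50 (interval -1.55 to -1.45), a 2.83-fold lower level. The paralog Flnc, known best from muscle, had 3.26 CPM and 13.1 CPM, a log2 ratio of -1.86.

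Sptan1 encodes the nonerythroid alpha spectrin and Sptbn1 its usual beta partner, and the mesh is built from pairs of one alpha and one beta chain. Sptan1, on chromosome 2 (29965560-30031451, plus strand; ENSMUSG00000057738.13), had 103 CPM in RNA-Best against 277 CPM in RNAlater, for a log2 ratio of -1.43 (interval -1.48 to -1.38). Sptbn1, on chromosome 11 (30099395-30268175, minus strand; ENSMUSG00000020315.18), had 150 CPM in RNA-Best against 402 CPM in RNAlater, for a log2 ratio of -1.42 (interval -1.46 to -1.38). The alpha to beta read ratio was 0.683 in RNA-Best and 0.687 in RNAlater, a log2 difference of -0.01. Of the 6 pairs compared within the set, this one differed least between the libraries, although its genes lie on separate chromosomes and share no window.

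Ank2 and Ank3 encode ankyrin-B and ankyrin-G, which hold ion channels, transporters and cell adhesion molecules to spectrin. Ank2, on chromosome 3 (126921612-127499350, minus strand; ENSMUSG00000032826.16), had 23.6 CPM in RNA-Best against 46.0 CPM in RNAlater, for a log2 ratio of -0.95 (interval -1.07 to -0.86). Ank3, on chromosome 10 (69398773-70027438, plus strand; ENSMUSG00000069601.13), had 16.7 CPM in RNA-Best against 38.9 CPM in RNAlater, for a log2 ratio of -1.20 (interval -1.34 to -1.11). The ankyrins were thus nearest to equal in the set, with Ank3 just inside the 2-fold line and Ank2 just outside it. Ank2 had 1.42 times the reads of Ank3 in RNA-Best and 1.18 times in RNAlater.

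Compared per kb of longest transcript, Sptbn1 had the highest level of the set in both libraries, at 16.5 CPM per kb in RNA-Best and 44.2 CPM per kb in RNAlater. In RNAlater Myh9 came next at 42.7 CPM per kb, before Sptan1 at 34.5 and Flna at 30.3, whereas in RNA-Best it stood at 7.46 CPM per kb, behind Sptan1 at 12.8 and Flna at 10.7. Myh10, Dst and Macf1 came next in that order in both. At the low end, Plec was above both ankyrins in RNAlater (4.39 CPM per kb against 3.90 for Ank3 and 3.22 for Ank2) and below both in RNA-Best (0.899 against 1.67 and 1.65). Neighbours whose exact Poisson intervals overlapped were Dst and Macf1 in RNAlater (7.67 and 7.62 CPM per kb) and Ank3 and Ank2 in RNA-Best; the spread between replicate libraries could not be measured. The order also rests on the length used: per kb of merged exons, Flna led in both libraries and Plec stayed above both ankyrins in both.

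Length set these genes apart from most others before any ratio was taken. Their longest annotated transcripts ran from 7.43 kb for Myh9 to 23.5 kb for Macf1, with a median of 9.54 kb against 3.09 kb over all genes, and 6.77% of all genes had a transcript as long as the shortest of them. Across all genes the log2 ratio was lower the longer the transcript. Genes outside the listed cytoskeletal sets had a median log2 ratio of 0.15 for transcripts up to 2 kb (4787 genes), -0.15 from 2 to 4 kb (6009 genes), -0.40 from 4 to 6 kb (3439 genes), -0.64 from 6 to 10 kb (1714 genes) and -0.88 over 10 kb (355 genes). The share at least 2-fold lower was 0.272% in the shortest class and 41.1% in the longest. A value at least 2-fold lower was thus more frequent among long transcripts than among short ones outside the set too.

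**Figure D2:**
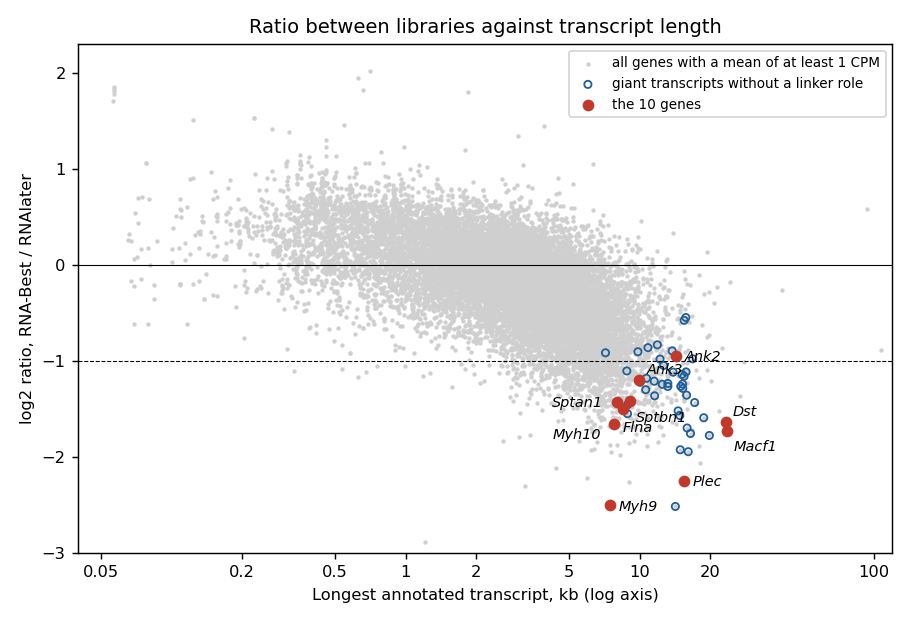
Log2 ratio of RNA-Best to RNAlater (0.5 CPM added) against the length of the longest annotated transcript (log axis) for all genes averaging 1 CPM or more and of known length (grey), 40 giant transcripts without a linker role (open blue) and the 10 genes (red); the dashed line marks 2-fold lower. The grey cloud bends down with length, Ank2 (-0.95) lies in its middle at that length, and Myh9 (-2.51) and Plec (-2.25) lie near its lower edge.

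Each gene was then set beside all genes outside the set whose longest transcript was within 25% of its own length. All 10 were below the median of such genes, by 0.04 (Ank2) to 1.89 (Myh9) on the log2 scale, with a median log2 difference of -0.80. Myh9 was lower than every one of 2085 genes of similar length, whose median was -0.61. Plec, with a log2 difference of -1.33, had 1 of 183 such genes below it, Hspg2. Myh10, Flna and Sptan1 also lay below the 5th percentile of their length neighbours, with log2 differences of -1.02, -0.82 and -0.77 and with 28 of 1839, 52 of 1531 and 75 of 1735 genes below them.

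The other 5 genes lay above the 5th percentile of their neighbours. Sptbn1 differed by -0.69 from the median and had 72 of 1239 genes below it. Macf1 and Dst had only 21 genes within 25% of their length, with 3 of them below either gene, and differed from that median by -0.87 and -0.76. Ank3 differed by -0.43 and had 149 of 941 genes below it, and Ank2 differed by -0.04 with 121 of 263 genes below it. For Ank2 the ratio was therefore that of an ordinary gene with a longest annotated transcript of its length. That length is 14.3 kb, whereas the median of its 27 annotated transcripts was 2491 bases.

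**Figure D3:**
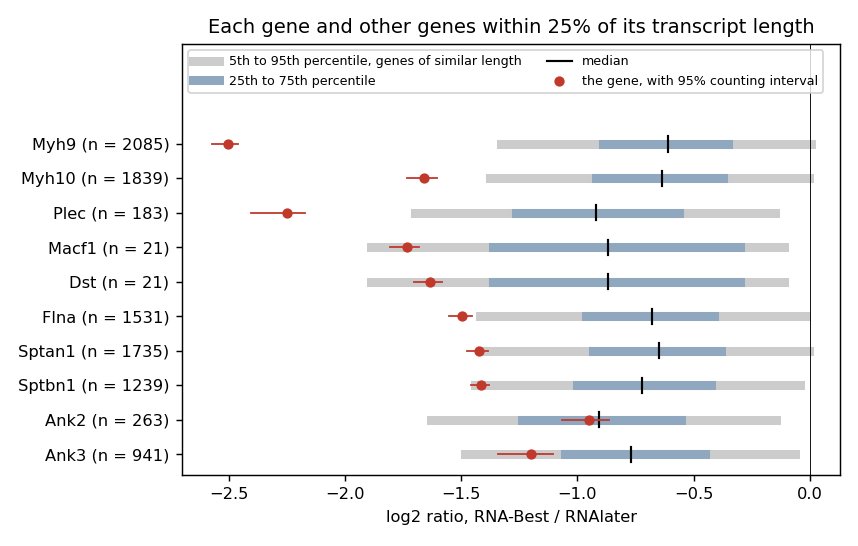
Log2 ratio of RNA-Best to RNAlater of each gene (red point, with its 95% counting interval computed without the pseudocount) over the 5th to 95th percentile (grey), 25th to 75th percentile (blue) and median (black tick) of other genes within 25% of its transcript length, with n the number of those genes. Myh9, Myh10, Plec, Flna and Sptan1 lie below the grey bars and Ank2 lies next to its tick.

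Base composition varied with the same ratio. Among other genes with transcripts of 7 to 24 kb, the median log2 ratio was -0.49 at a GC content up to 45% (517 genes), -0.83 from 45 to 50% (406 genes), -1.01 from 50 to 55% (278 genes), -1.13 from 55 to 60% (113 genes) and -1.17 above 60% (22 genes). The share at least 2-fold lower was 7.35%, 30.8%, 50.4%, 61.1% and 59.1% in the same order. Plec had the highest transcript GC of the set, 61.3%, and Myh9 the next, 57.0%, and these had the lowest ratios. At the last position of codons, 79.4% of the bases of Myh9 and 75.5% of those of Plec were G or C, against 49.7% in Macf1 and 50.4% in Ank2. Macf1, Sptbn1, Ank3, Ank2 and Dst had between 46.9% and 49.5% GC, and Myh10, Sptan1 and Flna had 51.5%, 52.3% and 54.0%. The ratios of these other genes did not follow the order of GC. Macf1, with the lowest GC of the set, had a log2 ratio of -1.73, whereas Flna had -1.50.

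With neighbours also held to within 3 percentage points of GC, the median log2 difference over the 10 genes was -0.57 instead of -0.80. Myh9 then differed by -1.62 and was still below all of its 281 neighbours. Plec differed by -0.96, from 5 neighbours only, and Myh10 by -0.82 from 534. Flna, Sptan1 and Sptbn1 differed by -0.58, -0.56 and -0.64, and Macf1 and Dst by -0.54 and -0.50 with 10 neighbours each. Ank3 differed by -0.32 and Ank2 was on the other side, at 0.17. The part that length and GC play in the ratios was not tested beyond these values. Within the set itself, the ratio had a Spearman's rho of -0.50 with transcript GC and of 0.08 with transcript length, over 10 genes of the same libraries and as a description only.

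The small partners of myosin II did not share the low values of the heavy chains. Of 5 light chain genes, none was at least 2-fold lower, and their median log2 ratio was -0.21 against -0.18 over all genes (-0.04 against -0.01 with TMM factors). Myl6, the essential light chain, had 267 CPM in RNA-Best against 181 CPM in RNAlater, for a log2 ratio of 0.56. The regulatory light chains Myl12a and Myl12b had log2 ratios of -0.26 and -0.21, and Myl9, the form prominent in contractile cells, had -0.62 at 11.3 and 17.5 CPM. Myl6b, at 2.62 and 2.33 CPM, had 0.14. Genes outside the cytoskeletal sets had medians of 0.15 up to 2 kb, the class of Myl6b, Myl9 and Myl12a. From 2 to 4 kb, the class of Myl12b and Myl6, their median was -0.15. Against the median of their length class, set by the longest annotated transcript, Myl9 and Myl12a were lower, Myl6 was higher, and Myl6b and Myl12b were close.

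Reads of Myl6 were 4.81 times those of Myh9 in RNA-Best and 0.572 times in RNAlater, an 8.42-fold difference in a ratio taken within each library. For Myl12a the ratio to Myh9 was 2.33 and 0.486, and for Myl12b 1.63 and 0.331. The light and heavy chains join into one protein, and their mRNAs are separate transcripts. The longest annotated transcripts of the light chain genes were 1.13 to 3.04 kb, and the expressed ones can be shorter. Of the other heavy chains of the myosin II type, Myh11, of smooth muscle, had 1.57 CPM in RNA-Best against 6.95 CPM in RNAlater, for a log2 ratio of -1.85. Myh14, the nonmuscle IIC chain, had 1.76 and 3.61 CPM, a log2 ratio of -0.86. Both were low in level, and Myh7b and Myh3 were under the 1 CPM minimum.

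Cytoplasmic dynein, the motor that carries cargo toward the minus ends of microtubules, showed the same split between a large and several small subunits. Its heavy chain gene Dync1h1, with a transcript of 14.3 kb, had 78.8 CPM in RNA-Best against 250 CPM in RNAlater, for a log2 ratio of -1.66. Of 9 smaller subunit genes, none was at least 2-fold lower, and their median log2 ratio was 0.03, or -0.10 when genes averaging under 10 CPM were dropped. Under other scalings that median was 0.20 (TMM), 0.21 (DESeq2) and 0.15 (without Prl and Gh). They ran from Dync1li2, a light intermediate chain, at -0.81 to Dynlt1b, a light chain, at 0.31. The most abundant, Dynll2, had 256 CPM and 317 CPM, so its read ratio to Dync1h1 was 3.25 in RNA-Best and 1.27 in RNAlater.

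**Figure D4:**
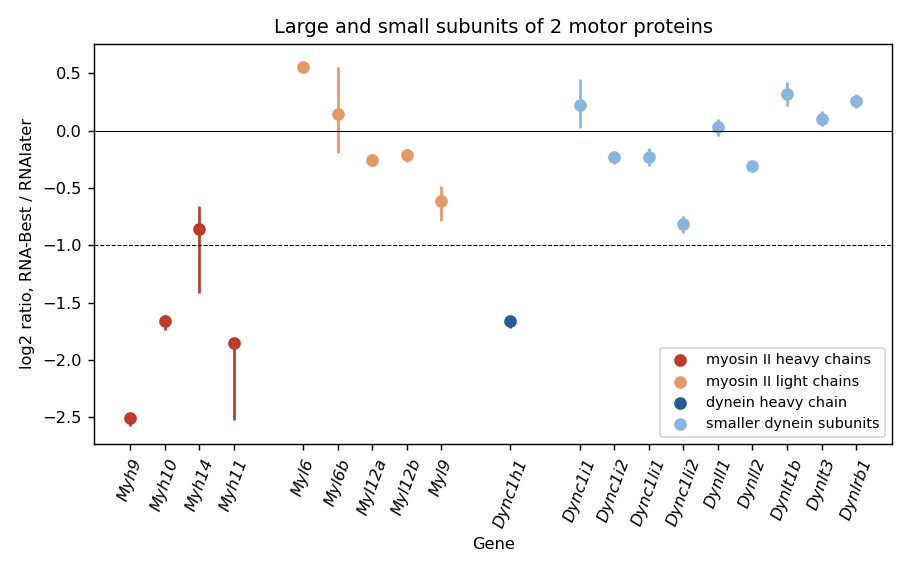
Log2 ratio of RNA-Best to RNAlater for heavy chains and small subunits of myosin II and cytoplasmic dynein, where points are ratios with 0.5 CPM added and vertical lines are 95% counting intervals without it, so that points of weakly expressed genes such as Myh11 sit toward one end of their lines. Myh9, Myh10, Myh11 and Dync1h1 lie below the dashed 2-fold line, and all light chains and smaller subunits lie above it.

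Regulators of myosin II were spread between the extremes. From here on, the most abundant gene of a list is the one with the highest mean CPM over both libraries. Of 7 genes, 3 were at least 2-fold lower (2 with TMM factors, with DESeq2 factors or without Prl and Gh) and the median log2 ratio was -0.90. Cit, a kinase of the cleavage furrow with a 9.51 kb transcript, was lowest at -1.70, at 1.47 and 5.88 CPM. Ppp1cb, the catalytic subunit of myosin phosphatase and the most abundant of the list, had 282 CPM in both libraries, a log2 ratio of 0.00 that became 0.17 under TMM scaling, 0.18 under DESeq2 size factors and 0.13 without Prl and Gh. Of 13 unconventional myosins, the motors that move membranes and organelles, 4 were at least 2-fold lower with a median of -0.92, and the count was 2 under each of these other scalings. They ran from Myo10, of filopodia, at -1.66 to Myo19, of mitochondria, at -0.43, and the most abundant, Myo5a, which carries secretory granules, had -0.88.

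Other plakins and desmosome proteins had a median ratio between those of the set and of all genes. Of 7 genes tested, 5 were at least 2-fold lower (4 under each of the other scalings), with a median log2 ratio of -1.17. Eppk1 was not analysed here. Dsp, desmoplakin, the plakin of desmosomes, had 7.96 CPM in RNA-Best against 28.3 CPM in RNAlater, for a log2 ratio of -1.77. Pkp2, a plakophilin with a 2.93 kb transcript, had -0.15, and the most abundant, Pkp4, had -0.77. Of 14 intermediate filament genes, the filaments that plectin binds, 1 was at least 2-fold lower (Krt19, -1.27) and the median was -0.62. Krt18, the most abundant of them, had -0.41, and Nefl had -0.09. Of 14 microtubule proteins and partners of the spectraplakins, 5 were at least 2-fold lower with a median of -0.62, from Map1b, a large microtubule-associated protein, at -1.47 to Tuba1a, an alpha tubulin, at 0.33. That count was 1 with TMM or DESeq2 factors and 3 without Prl and Gh.

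In the list of other filamins and their partners, 2 of 6 genes were at least 2-fold lower, Flnc being the lowest, and the median was -0.87. The most abundant gene there, Itgb1, the beta-1 integrin to which filamins bind, had 341 and 428 CPM, a log2 ratio of -0.32. Of 14 other spectrins and membrane skeleton proteins, 1 was at least 2-fold lower and the median was -0.75. That gene was Sptb, the erythroid beta spectrin, at -1.41, while Sptbn4 had -0.78, Dmtn was highest at -0.28 and Add1, an adducin and the most abundant, had -0.42. Of 10 genes for ankyrin 1 and ankyrin-binding membrane proteins, 1 was at least 2-fold lower (Nfasc, neurofascin, -1.14) and the median was -0.45. With TMM or DESeq2 factors none was, and the median was -0.28 or -0.27. Ank1, with a transcript of 8.37 kb, had 25.5 CPM and 26.3 CPM, a log2 ratio of -0.04 that turned to 0.13 under TMM scaling, 0.14 under DESeq2 size factors and 0.08 without Prl and Gh. Thus 1 of the 3 ankyrin genes had a long annotated transcript and nearly equal levels in the libraries.

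Of 13 adhesion and cross-linking proteins of actin, 5 were at least 2-fold lower, with a median of -0.91. Ahnak, a giant scaffold protein with an 18.1 kb transcript, was the lowest in ratio and had the highest mean level, with 115 CPM in RNA-Best against 482 CPM in RNAlater, for a log2 ratio of -2.06, and Actn2 was the highest at -0.23. Dystrophin and utrophin, named after their values were seen, are close paralogs that link actin to the membrane. Dmd, with a 14.9 kb transcript of 41.5% GC, had a log2 ratio of -0.49, and Utrn, with 12.4 kb and 47.9% GC, had -1.45. Of 6 nuclear envelope linkers, which couple the cytoskeleton to the nucleus, 3 were at least 2-fold lower (2 under each of the other scalings), with a median of -0.78, from Syne2, with a 21.7 kb transcript, at -1.53 to Emd, emerin, with 1.59 kb, at 0.06. Sun1, with the highest mean level over both libraries, had -0.38.

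Actin itself stood nearer to the middle of all genes. Of 18 actins and small actin-binding proteins, none was at least 2-fold lower, and the median log2 ratio was -0.10, which turned to 0.08 under TMM scaling, 0.09 under DESeq2 size factors and 0.03 without Prl and Gh. Actb had 875 CPM in RNA-Best against 1124 CPM in RNAlater, for a log2 ratio of -0.36, and Actg1 had -0.37. Their longest annotated transcripts were 1.92 and 1.95 kb, and both were below the median of 0.15 for other genes up to 2 kb. The list ran from Tpm3, a tropomyosin, at -0.46 to Tmsb10, a thymosin that binds actin monomers, at 0.35. Reads of Actb were 15.8 times those of Myh9 in RNA-Best and 3.54 times in RNAlater, and 9.68 times and 4.39 times those of Flna.

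The 139 cytoskeletal genes of these lists outside the 10 were compared with other genes of the same length class. Those up to 2 kb had a median log2 ratio of -0.03 (21 genes) and those from 2 to 4 kb of -0.36 (42 genes), against 0.15 and -0.15 for other genes. From 6 to 10 kb the median was -0.96, and 16 of 37 genes (43.2%) were at least 2-fold lower, against -0.64 and 20.1% of other genes. Over 10 kb it was -1.11, and 9 of 14 genes (64.3%) were at least 2-fold lower, against -0.88 and 41.1%. The 6 genes of the set between 6 and 10 kb had a median of -1.46 and the 4 over 10 kb of -1.68. Cytoskeletal genes were thus below other genes in each of these 4 classes, as they were from 4 to 6 kb (-0.62 against -0.40), by a margin whose error cannot be measured with 1 library per group.

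Giant transcripts with other tasks were lower as well. Of 40 listed giants without a linker role, such as chromatin, signalling and matrix genes, all 40 were lower in RNA-Best. At least 2-fold lower were 30, and the median was -1.24. The count and median were 25 and -1.07 with TMM factors, 23 and -1.06 with DESeq2 factors, and 26 and -1.11 without Prl and Gh. Hspg2, perlecan of the basement membrane, had 16.9 CPM and 98.9 CPM, a log2 ratio of -2.52 close to that of Myh9, from a 14.2 kb transcript of 60.9% GC, near that of Plec. Nbeal1, with 15.7 kb and 37.2% GC, had -0.55, and Srrm2, a splicing factor and the most abundant, had -1.46. Among all 369 other genes with transcripts over 10 kb the median was -0.89, and 155 (42.0%) were at least 2-fold lower. The genes nearest to the set's median ratio among those averaging 10 CPM or more were Fat1, Kdm6b, Fbn1, Ep300 and Itpr2, with log2 ratios from -1.58 to -1.55 and transcripts of 6.65 to 14.8 kb. They are named for likeness of this one ratio between 2 libraries.

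**Figure D5:**
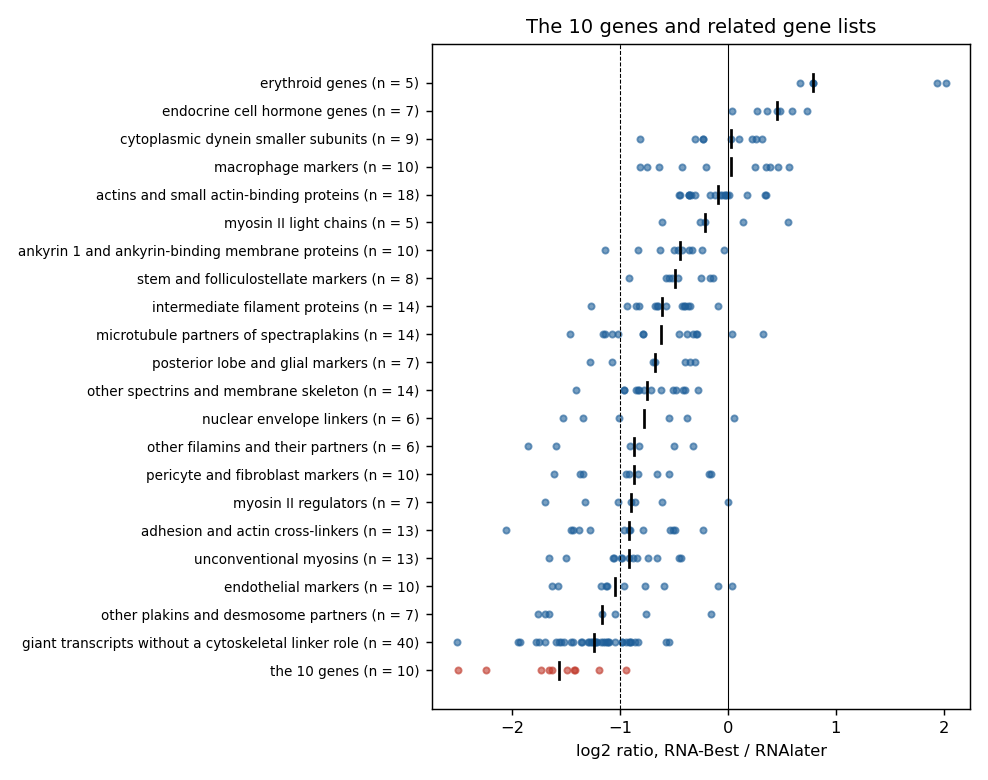
Log2 ratio of RNA-Best to RNAlater of every gene averaging 1 CPM or more in the 10-gene set (red) and in each related list (blue), ordered by list median (black tick), where the dashed line marks 2-fold lower; Dync1h1 alone and the 2 other myosin II heavy chains are left out. The 10 genes have the lowest median (-1.57), followed by giants without a linker role (-1.24), and the hormone and erythroid genes are the highest.

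Several of the 10 genes are also strongly expressed in vessel, connective tissue or blood cells, and markers of such cells differed between the libraries. Of 10 endothelial markers, 5 were at least 2-fold lower in RNA-Best and the median log2 ratio was -1.05, and the markers summed to 456 CPM in RNA-Best against 877 CPM in RNAlater. The count was 3 with TMM factors, 2 with DESeq2 factors and 4 without Prl and Gh. The markers ran from Kdr, a receptor of vascular endothelial growth factor, at -1.63 to Egfl7 at 0.04, and the most abundant, Plvap, had -0.77. Of 10 pericyte and fibroblast markers, 3 were at least 2-fold lower, with a median of -0.88 and sums of 590 and 801 CPM, from Pdgfra at -1.61 to Ogn at -0.16. Col1a2, a collagen and by far the most abundant of them, had 376 CPM and 425 CPM, a log2 ratio of -0.18. Of 7 posterior lobe and glial markers, 2 were at least 2-fold lower (1 under each of the other scalings), with a median of -0.68, and all 8 listed, including Sox10 under the 1 CPM minimum, summed to 144 and 234 CPM. None of 8 stem and folliculostellate markers was, with a median of -0.49 and sums of 259 and 362 CPM.

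Macrophage markers were split in direction, whereas erythroid genes were higher in RNA-Best. Of 10 macrophage markers, 5 were lower and 5 higher in RNA-Best, none by 2-fold, with a median of 0.02 (0.19 with TMM factors) and sums of 262 and 240 CPM. All 5 erythroid genes were higher, 2 of them at least 2-fold, with sums of 3200 and 1130 CPM. The 7 hormone genes were all higher too, none by 2-fold, with a median of 0.45. No marker counted here was at 0 in either library. Transcript lengths differed among these lists. The median was 0.699 kb for erythroid genes, 1.27 kb for macrophage, 3.76 kb for endothelial and 5.39 kb for pericyte and fibroblast markers. The part of these cell types in the ratios of the 10 genes was not tested.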

How the data were processed

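Bulk RNA-seq was analysed for 1 RNA-Best and 1 RNAlater library, grouped by the reagent named in the labels. The authors deposited unnormalized estimated counts per gene for 47069 genes, of which 35.4% (RNA-Best) and 34.9% (RNAlater) of the values above 0 were not whole. The submitters' processing notes name STAR 2.5.1b, featureCounts 1.5.0-p1 and mm10, but the fractional counting option and the strand setting are not given in the sources used here. Gene symbols, lengths, GC and sequences came from GENCODE M21 on GRCm38, which matched 98.9% of the identifiers; the release used for counting may differ.

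Counts were scaled to CPM by library total. For log2 ratios (RNA-Best over RNAlater) 0.5 CPM was added to both values, and genes averaging under 1 CPM were left out. The added value pulls ratios of weakly expressed genes toward 0. Exact conditional binomial intervals (95%) and Poisson intervals used rounded counts. With 1 library per group no p-value is given. A gene was called by a fold of 2, and genes within 25% of the length of the longest transcript counted as similar in length. A shared window is a stretch of 51 bases of the longest transcript that also occurs in a transcript of another gene.

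The 10 genes and all gene lists were chosen with earlier results of these data known. Named from each cytoskeletal list were its lowest, highest and most abundant gene, paralogs of the 10, the light chains and dynein subunits, and the 5 genes nearest to the set's median; marker lists are given mainly by counts and sums, and dystrophin and utrophin were added after their values were seen. Of the genes named by this rule, 3 are not reported here. Alternatives were TMM (edgeR 4.0.16) and DESeq2 1.42.0 factors in R 4.3.3, totals without the 2 most abundant genes, other pseudocounts, filters, length measures and neighbour sets, and thinning to equal totals. Scripts ran under Python 3.11.15 with pandas 2.3.3, scipy 1.17.1 and numpy 2.4.6. The 2-fold call and the binomial interval were tried on simulated Poisson counts with planted changes, which hold no spread between replicate libraries. The other steps were not tested on simulated data.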

Additional observations from a re-analysis of the deposited data

How the results depend on the processing

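All 10 genes were lower in RNA-Best, and 9 of 10 at least 2-fold lower, under the 9 alternatives in scaling, pseudocount, filter and depth, and the single log2 ratios ran from -2.52 to -0.77. The median log2 ratio of the 10 was -1.57, and it was -1.39 with TMM factors, -1.38 with DESeq2 size factors and -1.44 without Prl and Gh in the totals, because each of these scalings shifts all genes by one amount. The count of all genes at least 2-fold lower was 824, and it was 438, 423 and 536 under the same scalings. The median log2 difference from genes of similar length was -0.80. It was -0.73 with a minimum of 10 CPM, -0.86 with no filter, -1.22 with the median transcript length, -0.90 with merged exons, -0.88 within 10% of the length, -0.57 with length and GC, -0.73 against protein-coding genes and -0.71 against genes with whole counts; the cause was not tested. The median level per kb of the 10 was 4.39 CPM for RNA-Best and 13.9 CPM for RNAlater, and it was 21.7 and 60.9 with the median transcript length and 2.99 and 10.3 with merged exons, since the divisor changes. With a minimum of 10 CPM, which leaves fewer genes, the counts at least 2-fold lower were 3 for plakins and desmosome partners, 1 for myosin II regulators, 1 for other filamins and partners, 0 for intermediate filaments and 1 for posterior lobe markers.

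No paired analysis was possible because there was a single library in RNA-Best and in RNAlater, without replicate numbers. For the same reason no replicate was left out. Intervals cover counting error only, at 749 to 18073 counts per gene, and the spread between animals or preparations was not measured. The transcript that was expressed can be shorter than the longest one annotated, which affects levels per kb and the choice of neighbours.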
